A study of Mus musculus with 5 samples.

Results

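The 8 genes described here are markers of peripheral glia and of their precursors: *Sox10*, *Foxd3*, *Erbb3*, *Fabp7*, *S100b*, *Gfap*, *Mbp* and *Egr2*. They were picked by name out of 23903 genes in the deposited table, and all 8 were found and tested. RNA had been sequenced from 5 libraries of spheres grown from postnatal mouse adrenal cells, which were first separated by immunopanning on an antibody against the surface protein L1CAM. Cells held by the antibody gave 2 L1CAM-positive libraries (labelled chromaffin cell, numbers 25 and 31), and the cells left over gave 3 L1CAM-negative libraries (labelled non-adrenergic, numbers 25, 31 and 28). They are called positive and negative spheres below. Numbers 25 and 28 had been in sphere culture for 8 days and number 31 for 5 days. Numbers 25 and 31 are labelled as a mix of P0 and P2 animals and number 28 as P5. The labels give the strain C57/bl6 for all libraries, whereas the methods of the study name OF-1 mice for the adrenal cultures. No genotype or drug separates the groups, and all spheres grew in serum-free medium with EGF and FGF. What the number stands for is not given. By age and days in culture the numbers are separate cultures, but nothing says whether the positive and negative library of one number share animals. The p-values stand for the scatter among these 5 samples, part of which may be technical.

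Schwann cell precursors are neural crest-derived cells that travel along nerves and, in the mouse embryo, give rise to a large part of the chromaffin cells of the adrenal medulla. SOX10 is the transcription factor that keeps neural crest and glial identity, FOXD3 is an early crest factor, and ERBB3 is the receptor through which axonal neuregulin keeps the precursors alive. FABP7 is a fatty acid-binding protein of immature glia, S100B and GFAP mark more mature glia and the supporting cells of the medulla, EGR2 (KROX20) switches on myelination, and MBP is a structural protein of myelin. L1CAM, the antigen of the sort, is a known surface protein of neurons and of immature and non-myelinating Schwann cells.

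The values are log2(FPKM + 2), where FPKM are fragments scaled to transcript length and library size, quantile normalized by the authors, and the offset of 2 was inferred from a lowest value of exactly 1. FPKM given below are these values with the offset removed. Between 20.8% and 22.1% of the transcripts of each library were at this floor, and the depth is unknown. Log2 ratios are positive over negative, SE is their standard error, and adjusted p is that of limma over all genes, and an exact permutation test of 2 against 3 libraries cannot give a p below 0.1. The label of the positive spheres fitted their markers: all 10 chromaffin genes listed were higher in both positive libraries than in any negative one, 7 of them past the test, with summed FPKM of 9130 and 7344 against 132 to 573. Of 6 pan-neuronal genes 5 were higher and 0 lower. Positive spheres also held mRNA of cortex markers (summed FPKM 1783 and 1845 against 7731 to 12859) and of capsule markers (834 and 874 against 3957 to 5798). All 7 cortex genes were lower in positive spheres, as were 3 of 7 capsule, 3 of 6 endothelial and 1 of 6 macrophage genes, and none of 11 housekeeping genes passed in either direction (0 also at an unadjusted p under 0.05). In bulk RNA, fewer cells of a type and less RNA per cell cannot be told apart.

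Sequences just upstream of the start sites are shown for 3 genes that stand on opposite sides of the comparison below, as RefSeq gives them on GRCm38.p6. Each runs from 250 bases before to 50 bases after the start, and 5 of the 8 genes had an entry. *Foxd3* (chr4:99656049-99656348, plus strand) and *Fabp7* (chr10:57784673-57784972, plus strand) had their highest values in positive spheres, and *Egr2* (chr10:67537619-67537918, plus strand) in negative ones. Of these 3 genes, *Fabp7* alone passed the test.
Foxd3: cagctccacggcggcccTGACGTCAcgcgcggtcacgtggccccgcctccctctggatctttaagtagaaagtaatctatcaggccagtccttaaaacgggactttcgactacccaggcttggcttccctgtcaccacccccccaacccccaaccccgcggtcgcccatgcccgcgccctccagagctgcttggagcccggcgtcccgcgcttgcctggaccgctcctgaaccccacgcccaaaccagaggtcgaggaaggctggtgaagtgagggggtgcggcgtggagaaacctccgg
Fabp7: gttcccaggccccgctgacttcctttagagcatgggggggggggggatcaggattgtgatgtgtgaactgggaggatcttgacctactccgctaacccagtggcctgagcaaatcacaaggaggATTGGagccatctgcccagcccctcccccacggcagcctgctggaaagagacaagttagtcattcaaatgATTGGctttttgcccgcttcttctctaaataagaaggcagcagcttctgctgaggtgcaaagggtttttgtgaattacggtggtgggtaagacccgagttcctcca
Egr2: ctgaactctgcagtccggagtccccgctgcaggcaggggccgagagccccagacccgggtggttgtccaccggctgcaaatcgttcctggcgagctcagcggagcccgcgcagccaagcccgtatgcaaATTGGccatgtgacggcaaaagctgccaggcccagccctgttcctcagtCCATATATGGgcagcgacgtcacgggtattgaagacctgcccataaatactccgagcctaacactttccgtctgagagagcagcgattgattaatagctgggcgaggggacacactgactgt
Capitals mark matches on either strand to the cAMP response element TGACGTCA, to the CCAAT box CCAAT and, by name, to the CArG box of serum response factor. The motifs were chosen after the sequences had been read. *Foxd3* holds 1 cAMP response element, starting 233 bases before the start site, and this motif is in 1.79% of 32851 RefSeq promoters of this length. *Fabp7* holds 2 CCAAT boxes, the nearer 56 bases before the RefSeq start site, and 37.4% of promoters hold at least 1. *Egr2* holds a CCAAT box and, 72 bases before the start site, a CArG box, a motif found in 1.63% of promoters. The SOX motifs ACAAAG and ACAATG, which 28.6% of promoters hold, match none of these windows nor those of *S100b* and *Gfap*. These matches are letters in a window and not shown to be sites.

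Of the 8 genes, *Sox10*, *Fabp7*, *Erbb3* and *Mbp* were higher in positive spheres, and none was lower. That is 4 of 8, where 11.6% of all genes tested were higher and 10.0% were lower. At an unadjusted p under 0.05 the counts were 5 higher and 1 lower, where 17.4% of all genes were higher and 17.4% lower. In 5 of the 8, *Foxd3* included, the positive libraries were both above every negative one (23.0% of all genes), and in *Egr2* both were below (26.0%), so that the groups did not overlap in 6 of 8 (48.9% of all genes). The median log2 ratio of the 8 was 1.59, against 0.00 over all genes tested. The calls of *Sox10*, *Fabp7* and *Erbb3* are not stable: with any 1 library left out, between 1 and 2 of the 8 genes passed, while the count of all genes higher in positive spheres ranged from 1301 to 2805. Of the genes named below as higher or lower, *Mbp*, *Sox9*, *Erbb2*, *Gap43*, *Gldn*, *Junb*, *Ina* and *Tlx2* passed in all 5 of these fits, and every other one in 0 to 3 of them.

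**Figure D1:**
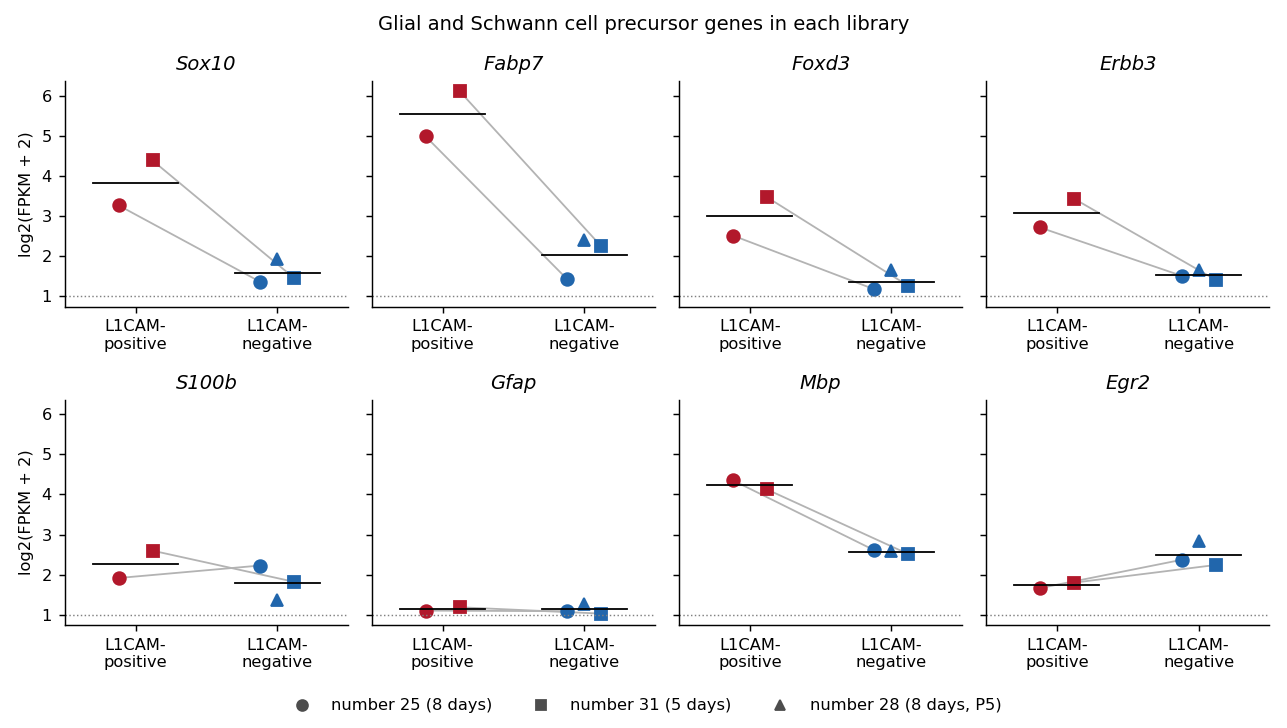
Values of the 8 genes in each of the 5 libraries, as log2(FPKM + 2), with horizontal bars for group means, grey lines joining the libraries of one number and a dotted line at the floor of 1. *Sox10*, *Fabp7*, *Foxd3*, *Erbb3* and *Mbp* lie higher in both positive libraries, and the first 4 of these are highest in number 31.

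*Sox10* (NM_011437, 4 exons, chromosome 15 of GRCm38 from 79154913 to 79164490, minus strand) was read in positive spheres at an FPKM of 7.62 (number 25) and 18.9 (number 31). The negative libraries gave 0.566 (number 25), 0.735 (number 31) and 1.79 (number 28). Both positive libraries were thus above all others, and number 31 stood well above number 25. On the log2 scale the means were 3.83 ± 0.79 (SD, n = 2) and 1.58 ± 0.30 (SD, n = 3), a log2 ratio of 2.25 (SE 0.43, limma adjusted p = 0.0413). The ratio of mean FPKM was 12.9. The direction held in all 20 alternatives, many of which could not change it because the groups did not overlap. The gene did not pass once any 1 library, positive or negative, was left out. For the negative libraries the limma adjusted p ran from 0.0718 (without number 28) to 0.132 (without negative number 25). The log2 ratio was 2.81 without positive number 25 and 1.69 without positive number 31.

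*Sox9* and *Sox8*, which encode the other two factors of the SOXE group, did not follow *Sox10*. *Sox9* was at an FPKM of 1.87 and 2.24 in positive and 13.1, 14.8 and 12.8 in negative spheres, a log2 ratio of -1.94 (adjusted p = 0.00450). *Sox10* mRNA was thus above *Sox9* mRNA in both positive libraries, and *Sox9* above *Sox10* in all 3 negative ones, per kilobase. *Sox8*, chosen after its values were seen, was between 0.585 and 1.79 in all libraries, with a log2 ratio of 0.24 (SE 0.16, adjusted p = 0.406). Of 13 SOX and neural crest transcription factor genes listed, 3 were higher and 4 were lower in positive spheres, with a median log2 ratio of -0.13. Those higher were *Tfap2b*, a factor of sympathoadrenal cells as well as crest, with 3.65, *Sox2*, a factor of neural progenitors and immature Schwann cells, with 0.48, and *Tfap2a*, a relative of *Tfap2b*, with 0.32. *Sox2* and *Tfap2a* were read at low levels, with an FPKM of 0.878 and 1.20 and of 0.807 and 0.828 in positive spheres. In negative spheres they did not exceed 0.397 and 0.334. Those lower were *Sox9*, and with *Twist1* (-1.56), *Snai2* (-1.26) and *Zeb2* (-1.22) 3 genes of mesenchymal transition. *Ets1*, the other gene of this list with a high mean, had -0.13 (adjusted p = 0.834).

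*Foxd3* (NM_010425, a single exon on chromosome 4 from 99656299 to 99658622), whose promoter window is shown above, had FPKM of 3.71 and 9.10 in positive numbers 25 and 31. In negative spheres the values were 0.254, 0.389 and 1.14 in numbers 25, 31 and 28. The order of the libraries was that of *Sox10*, with number 31 above number 25 and number 28 highest among the negative ones. The log2 means were 2.99 ± 0.68 (SD, n = 2) and 1.36 ± 0.25 (SD, n = 3). The log2 ratio of 1.63 (95% interval 0.58 to 2.69) did not pass the test (limma adjusted p = 0.0578). Leaving aside the genes that no library read above the floor, it passed (adjusted p = 0.0238), as it did in 4 of 20 alternatives in all, over which its adjusted p ranged from 0.0105 to 0.168.

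*Erbb3*, the neuregulin receptor (NM_010153, 28 exons, chromosome 10 from 128567523 to 128589652, minus strand), was at an FPKM of 4.56 and 8.80 in positive numbers 25 and 31. It was at 0.849, 0.659 and 1.17 in negative numbers 25, 31 and 28. The groups did not overlap. The log2 means were 3.07 ± 0.51 (SD, n = 2) and 1.53 ± 0.13 (SD, n = 3), a log2 ratio of 1.55 (SE 0.26, limma adjusted p = 0.0310). It passed in 13 of 20 alternatives and, of the fits with 1 library left out, only without positive number 25 (adjusted p = 0.0311). Without negative number 25 the adjusted p was 0.110, without positive number 31 it was 0.0509, without negative number 31 it was 0.106 and without number 28 it was 0.0687.

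ERBB3 has an impaired kinase and signals as a dimer, mostly with ERBB2. *Erbb2* had the opposite pattern, with an FPKM of 2.14 and 2.47 in positive spheres and 7.55, 7.55 and 6.95 in negative ones. Its log2 ratio was -1.12 (SE 0.08, adjusted p = 0.00657). In positive spheres *Erbb3* was therefore read above *Erbb2* and in negative spheres below it, per kilobase, in every library. *Egfr*, the receptor for the EGF in the medium, had a log2 ratio of -1.95 (adjusted p = 0.0308) and its ligand gene *Tgfa* of -0.66 (adjusted p = 0.0367). Of the neuregulin genes, *Nrg3* with 1.18 (adjusted p = 0.0152) and *Nrg2* with 0.54 (adjusted p = 0.0430) were higher in positive spheres, at an FPKM of 4.27 and 2.72 and of 1.53 and 1.09. *Nrg1*, the main ligand of Schwann cells and chosen here after its values were seen, was between 0.799 and 1.38 in all libraries (log2 ratio 0.19, adjusted p = 0.0824). Of the 13 genes of EGF family ligands and receptors listed, 2 were higher, 3 were lower and 8 did not pass. *Egfr* did not pass with 1 library left out except without number 28 (adjusted p 0.0109, and 0.0795 to 0.160 otherwise). *Erbb2* passed in each of these fits.

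*Fabp7* (NM_021272, 4 exons, chromosome 10 from 57784881 to 57788450, plus strand) had the largest log2 ratio of the 8 genes and, in positive spheres, the highest level. In positive spheres its FPKM was 29.6 (number 25) and 67.1 (number 31), above 85.4% and 94.1% of all genes in those libraries. In negative numbers 25, 31 and 28 it was 0.678, 2.73 and 3.26. The log2 means were 5.55 ± 0.80 (SD, n = 2) and 2.02 ± 0.52 (SD, n = 3), a log2 ratio of 3.53 (SE 0.52, limma adjusted p = 0.0232). The ratio of mean FPKM was 21.8. Here number 31 was above number 25 in both fractions, by 1.13 on the log2 scale in positive and by 0.82 in negative spheres. The gene did not pass once any 1 library was left out, with adjusted p from 0.0503 (without number 28) to 0.0956 (without positive number 31). Its relative *Fabp5*, chosen after its values were seen, was read at 22.9 to 23.5 against 13.4 to 19.6, a log2 ratio of 0.43 that did not pass (adjusted p = 0.188).

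**Figure D2:**
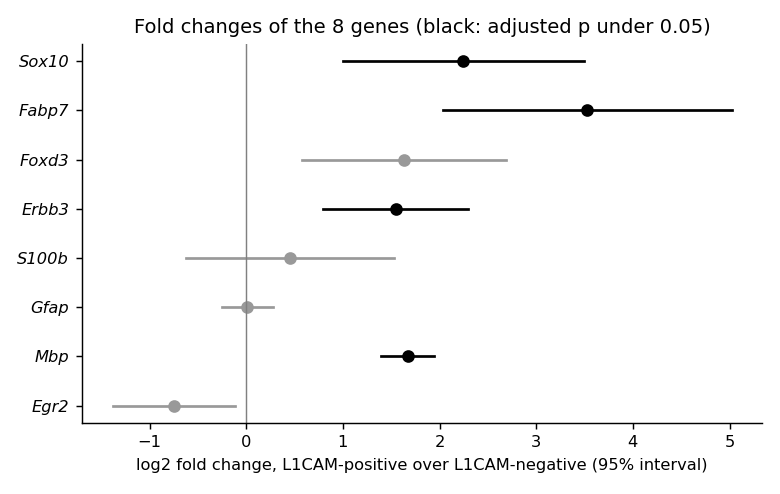
Log2 ratios of the 8 genes, positive over negative, with 95% intervals from limma that are not adjusted for the number of genes. *Sox10*, *Fabp7*, *Erbb3* and *Mbp* are past the threshold (black), *Foxd3* at 1.63 is not, and *Egr2* at -0.75 is the one gene on the other side.

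*Mbp* was higher in positive spheres with the smallest standard error of the 4 called genes, and most of its signal came from a transcript with an upstream start. The gene is listed with 8 transcripts on chromosome 18. By the GENCODE annotation of the same genome build, 6 of them start at the promoter of classic myelin basic protein (first start at 82554470) and 2 start 79.3 kb upstream (first at 82475146). Transcripts from the upstream start encode the golli proteins, which are also made in neurons and immune cells. The measured transcript NM_001025245 (4 exons, from 82475146 to 82558703, plus strand) belongs to the upstream class. Its FPKM was 18.4 and 15.5 in positive numbers 25 and 31 and 4.09, 3.70 and 4.02 in negative numbers 25, 31 and 28. The log2 ratio was 1.67 (SE 0.10, limma adjusted p = 0.00527), from means of 4.24 ± 0.16 (SD, n = 2) and 2.57 ± 0.05 (SD, n = 3). It passed the test in 19 of 20 alternatives, each with 1 library left out included (adjusted p from 0.0162 to 0.0341).

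The 2 upstream transcripts together held 88.7% and 89.4% of the summed *Mbp* FPKM in positive spheres and between 84.4% and 86.3% in negative spheres. The 6 transcripts from the classic promoter summed to an FPKM of 2.47 and 2.01 in positive and 0.780, 0.587 and 0.739 in negative spheres, and none of them was above 1.25 in any library. How Cufflinks divided reads in shared exons among these transcripts is an estimate. Unlike *Sox10*, *Mbp* was lower in number 31 than in number 25 of the positive spheres, by 0.23 on the log2 scale.

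**Figure D3:**
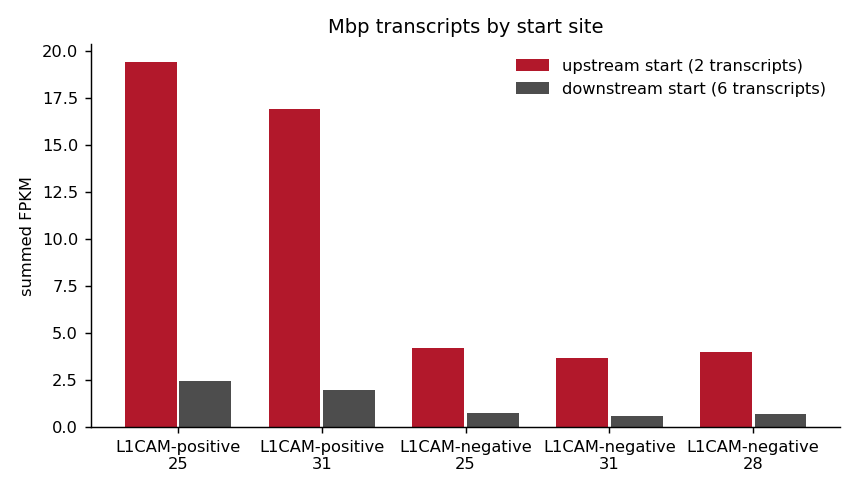
Summed FPKM of the *Mbp* transcripts that start at the upstream (golli) and at the downstream (classic) promoter in each library. The upstream class stands at 19.4 and 16.9 in positive spheres and near 4 in all negative ones, and the downstream class stays below 2.5.

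*Egr2* (NM_010118, chromosome 10 from 67537869 to 67542188, plus strand) was the only gene of the 8 with lower values in both positive libraries. Its FPKM was 1.17 and 1.48 in positive numbers 25 and 31 and 3.17, 2.73 and 5.13 in negative numbers 25, 31 and 28. The log2 ratio of -0.75 (SE 0.22, 95% interval -1.38 to -0.12) did not pass the test (limma adjusted p = 0.101). It passed without number 28 (-0.57, adjusted p = 0.0458) and among genes at 1 FPKM or more in at least 2 libraries (adjusted p = 0.0360). *Egr2* is also an immediate early gene, a class known for CArG boxes upstream of their start sites, and its window shown above holds a match. Of 10 other immediate early genes listed, *Junb* was lower (log2 ratio -1.13, adjusted p = 0.00444), and none was higher in limma (0 also at an unadjusted p under 0.05). *Egr1*, at an FPKM of 86.2 to 233, had -0.20 (adjusted p = 0.965), and was lowest in number 28, where *Egr2* was highest. The genes of the EGR corepressors, *Nab2* with -1.10 (adjusted p = 0.0252) and *Nab1* with -0.75 (adjusted p = 0.0122), were lower in positive spheres.

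Several genes of the late, myelinating stage were near the floor. Of 15 myelin genes and regulators listed, 7 were under an FPKM of 1 in all 5 libraries, 2 were higher in positive spheres and 3 were lower. The 2 higher ones, *Pou3f2* (log2 ratio 0.30) and *Gldn* (0.09), did not exceed an FPKM of 1.14. *Prx*, which encodes periaxin, had -0.61 (adjusted p = 0.0103). *Pmp22* and *Cnp*, the most highly read of the list, are expressed in many cell types and had 0.46 and -0.48 (adjusted p = 0.638 and 0.0896).

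*S100b* and *Gfap* gave no difference between the fractions that passed the test. *S100b* (NM_009115, 3 exons, chromosome 10 from 76253853 to 76261159, plus strand) was at an FPKM of 1.77 and 4.05 in positive numbers 25 and 31 and 2.68, 1.53 and 0.565 in negative numbers 25, 31 and 28. The groups overlapped, since number 25 was higher in its negative library and number 31 in its positive one. The log2 ratio was 0.45 (95% interval -0.62 to 1.53, limma adjusted p = 0.508). *Gfap* (NM_010277, 9 exons, chromosome 11 from 102887336 to 102897131, minus strand) did not exceed an FPKM of 0.429 in any library, and its log2 ratio of 0.01 (95% interval -0.25 to 0.28, adjusted p = 1) compares values at the floor. Its second transcript, NM_001131020, did not exceed 0.190. On this scale the interval of a gene so near the floor says little about its ratio. Of 9 other intermediate filament genes 4 were higher and 0 lower, among them the neurofilament genes *Nefm* (2.80), *Ina* (2.79) and *Nefl* (2.66), and *Vim*, the vimentin gene of mesenchyme and immature glia, had -0.55 (adjusted p = 0.153).

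The most highly read S100 relatives were far above *S100b*. *S100a6* was at an FPKM of 287 to 412 and *S100a10* at 184 to 256, with log2 ratios of 0.22 and -0.15 that did not pass (adjusted p = 0.406 and 0.721). Of 12 S100 and FABP relatives, *S100a13* was higher (0.60, adjusted p = 0.0362), and *S100a11* (-0.99, adjusted p = 0.0212) and *S100a8* (-1.10, adjusted p = 0.0496), a gene of neutrophils listed at 0 in both positive libraries, were lower. Among 10 genes of satellite, enteric and astroglial cells, none was higher in limma (1 at an unadjusted p under 0.05) and 4 were lower, with a median log2 ratio of -1.37. *Aldh1l1*, a folate enzyme used as an astrocyte marker, had -1.84, *Sparcl1* -1.59 and *Gja1*, the connexin 43 gene, -1.46, none of which is confined to glia. *Apoe*, the most highly read of this list, had -1.37 and did not pass (adjusted p = 0.165). Capsule, cortex and endothelial markers moved with these 4 genes, with medians of -2.14, -2.55 and -2.21, and their part in the result was not tested.

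Among 17 other genes of Schwann cell precursors and immature Schwann cells, 5 were higher in positive spheres and 1 was lower, with a median log2 ratio of 0.43. *Gfra3* (4.62), *Ncam1* (2.96) and *Gap43* (2.74) had the largest values, and each is also a gene of chromaffin cells or neurons. *Cdh19*, a cadherin gene typical of Schwann cell precursors and chosen after its values were seen, had 1.55 (SE 0.30, adjusted p = 0.0427). *Cdh19* was at an FPKM of 8.21 and 12.6 in positive numbers 25 and 31 and 1.56, 1.71 and 3.55 in negative numbers 25, 31 and 28. It had the order of libraries of *Sox10* within each fraction. *Lgi4*, a secreted Schwann cell factor, had 1.10 (adjusted p = 0.0588) and *Ngfr*, the p75 receptor gene, 1.06 (adjusted p = 0.146), so that neither of these, both chosen after their values were seen, passed. *Cryab*, a small heat shock protein gene, was lower (-1.08, adjusted p = 0.0232), and *Serpine2* was at 58.9 and 107 against 102, 200 and 514 (adjusted p = 0.344). Without 1 library, between 1 and 5 genes of this list were higher. *Cdh19* then passed only without number 28 (adjusted p = 0.0375).

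Among negative spheres the P5 library, number 28, was the highest of the 3 negative libraries for 6 of the 8 genes (29.1% of all genes), *Gfap* near the floor included, and for 9 of the 17 Schwann cell precursor genes. It was the lowest for 10 of 10 chromaffin markers, with a median of -1.86 on the log2 scale against the mean of numbers 25 and 31. On the same measure *Sox10* was at 0.52, *Fabp7* at 0.56, *Foxd3* at 0.44, *Egr2* at 0.53, *Erbb3* at 0.20, *Gfap* at 0.22 and *Mbp* at 0.03. *S100b*, at -0.67, was lowest in number 28, as the chromaffin markers were. *Sox10* stood at 1.79 FPKM in a library with a summed chromaffin FPKM of 132, and at 0.566 and 0.735 in the libraries with 546 and 573. With 1 library, age cannot be told apart from other differences of number 28.

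Between the positive libraries, number 31 (5 days in culture) was above number 25 (8 days) for 7 of the 8 genes, all but *Mbp*. Of all 23903 genes tested, 8677 were higher in number 31. Number 31 was the highest of all 5 libraries for 5 of the 8 genes (13.7% of all genes). The difference was 1.12 on the log2 scale for *Sox10*, 1.13 for *Fabp7*, 0.96 for *Foxd3*, 0.72 for *Erbb3* and 0.68 for *S100b*. These correspond to FPKM ratios of 2.48, 2.26, 2.45, 1.93 and 2.28. A difference of at least 0.5 was found for 5 of 8 genes, against 1.93% of all genes and 2.84% of those at 1 FPKM or more in at least 2 libraries. Of the 17 Schwann cell precursor genes 5 reached it, among them *Ednrb* (0.96), *Serpine2* (0.84), *Lgi4* (0.67) and *Cdh19* (0.52), which were named after their values were seen. Of 10 chromaffin markers 0 reached it, and their median difference was -0.17, while that of the pan-neuronal markers was -0.21. In negative spheres number 31 was above number 25 by at least 0.5 for 1.84% of all genes and, of the 8, for *Fabp7* alone. *Sox10*, *Foxd3* and *Erbb3* differed there by 0.09, 0.08 and -0.10. That numbers 25 and 31 may differ was known when the genes were chosen, and with 1 library each there is no replicate check of these values.

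**Figure D4:**
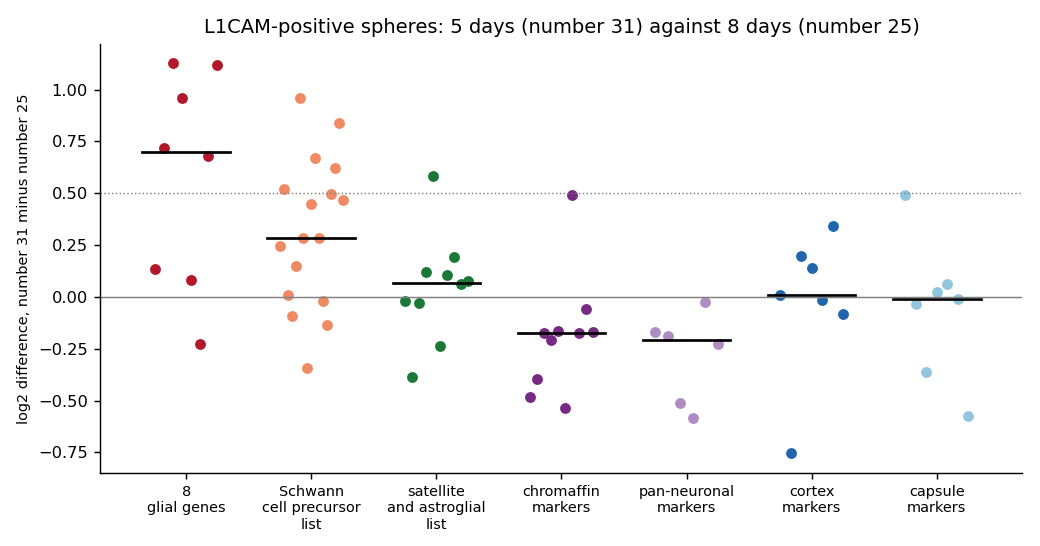
Difference between the 2 positive libraries, number 31 (5 days) minus number 25 (8 days), in log2(FPKM + 2), with 1 point per gene, bars for list medians and a dotted line at 0.5. The 8 glial genes have a median of 0.70 and the Schwann cell precursor list one of 0.28, and the chromaffin markers lie at a median of -0.17.

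The fraction difference was therefore compared within each number. It was 1.91 in number 25 and 2.93 in number 31 for *Sox10*, 1.34 and 2.22 for *Foxd3*, and 1.20 and 2.02 for *Erbb3*. For *Fabp7* it was 3.56 and 3.87, and for *Mbp* 1.75 and 1.61. In a model with the interaction of fraction and culture period, none of the 8 differences between 5 and 8 days passed the test of limma (2.06% of all genes did), and 0 had an unadjusted p under 0.05 (7.36% of all genes). That of *Sox10* was 1.31 (SE 0.61, unadjusted p = 0.188) and that of *Erbb3* 0.89 (SE 0.21, unadjusted p = 0.0685). This fit has 1 residual degree of freedom, from negative numbers 25 and 28, which also differ in age.

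**Figure D5:**
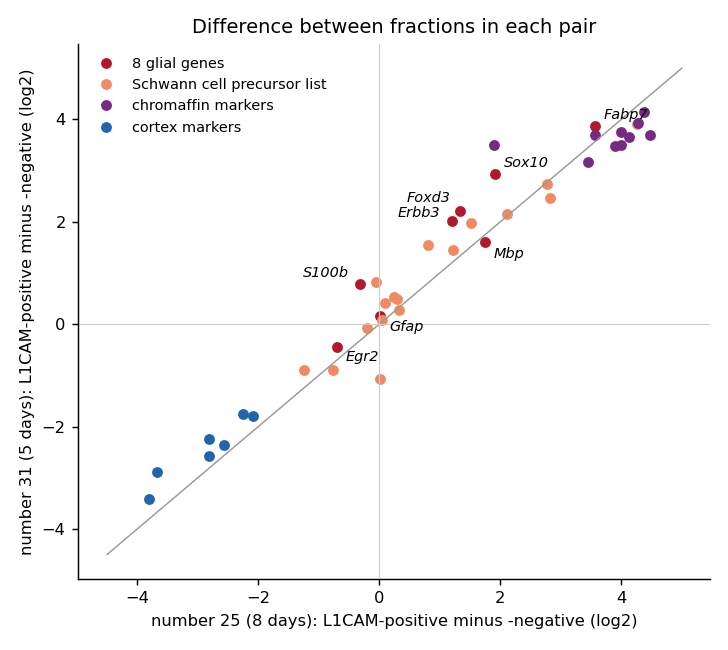
Log2 difference between positive and negative spheres within number 25 (horizontal axis) and number 31 (vertical axis), with 1 point per gene, coloured by list, and a grey line where both are equal. *Sox10*, *Foxd3*, *Erbb3* and *S100b* lie above the line, *Mbp* just below it, and *S100b* at -0.31 and 0.78 has opposite signs.

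The profile of *Sox10* over the 5 libraries was shared by genes of other functions. Among the 5 genes nearest to it, by the Euclidean distance between log2 values centred on their own means, were *Pcsk1* (0.52), *Snrpn* (0.54), *Vgf* (0.63) and *Sncb* (0.63), over 5 libraries. *Pcsk1* encodes a prohormone convertase, *Vgf* a secreted granule protein, *Sncb* a synuclein of neurons and *Snrpn* a splicing protein made in neurons. *Vgf* was at an FPKM of 54.2 and 125 in positive numbers 25 and 31, and *Pcsk1* at 14.4 and 24.9. Both were picked for a profile near that of *Sox10*, which includes the step between these libraries. Their sharing this step was thus fixed by the choice.

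Bridge cells are the short-lived intermediates between Schwann cell precursors and chromaffin cells described in the mouse embryo. Of 4 genes listed for them, 3 were higher in positive spheres, among them *Tlx2* and *Dll3*. *Tlx2*, a homeobox gene that is also on in sympathoadrenal cells, had a log2 ratio of 3.82 (adjusted p = 0.00738) and *Dll3*, a Notch ligand, of 1.21 (adjusted p = 0.0247). With 1 library left out, *Tlx2* passed in each fit and *Dll3* in none (adjusted p from 0.0552 to 0.0941).

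Other cell types that express *Sox10* were looked for by their markers. Of 6 melanocyte markers, 1 was higher in positive spheres and 2 were lower, 4 were under an FPKM of 1 in every library, and the summed FPKM was 4.96 and 5.57 in positive against 8.40 to 10.7 in negative spheres. Of 5 genes of the oligodendrocyte lineage, 1 was higher and 0 lower, and 3 were under 1 in every library. The higher one was *Gpr17*, a receptor gene, at an FPKM of 2.58 and 5.05 against 0.0784, 0.181 and 0.0498 (log2 ratio 1.43, adjusted p = 0.0234).

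Of the 8 genes, 4 lie on chromosome 10 (*Fabp7*, *Egr2*, *S100b* and *Erbb3*), which holds 4.66% of the genes tested that have a position. Their log2 ratios were 3.53, -0.75, 0.45 and 1.55 in that order.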

How the data were processed

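The authors made libraries with a strand-marking mRNA kit, aligned with STAR 2.6.1a (mm10), obtained FPKM from Cufflinks and quantile normalized the samples in limma. The deposited values are log2 units of 32737 RefSeq transcripts. The offset, the annotation release and whether counting used strand are not given in the sources used here. After removal of 202 transcripts that lack a symbol, each symbol was represented by its transcript with the highest mean (4743 symbols had several). This gave 23903 genes, 4354 of them at the floor throughout. Groups were compared in R 4.3.3 with limma 3.58.1 (lmFit, eBayes with trend), 2-sided, after Benjamini-Hochberg at 0.05. The fit was tested on simulated data, with changes planted only in well-read genes and a condition on the mean estimates alone. That test does not cover the calls of genes near the floor. Coordinates are from GENCODE M21 (GRCm38), and matplotlib 3.10.9 drew the figures.

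The genes and the 19 lists (175 genes) were chosen with earlier results of these data known. The genes named are the 8, the 5 nearest to *Sox10*, and, per list, up to 3 called genes a direction by size of change plus the 2 of highest mean. Any other gene is marked as chosen after its values were seen. Some genes the rule names are not reported here. Marker lists of other cell types are given by counts, medians and summed FPKM, and of their genes *Gpr17* alone is named. Alternatives were pseudocounts of 0.1, 1 and 5, low-value filters, other handling of transcripts, other normalizations, eBayes without trend or robust, a block for the number, a term for culture period, and fits lacking 1 library each. A combination of the culture term with a floor filter was added after seeing the data.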

Additional observations from a re-analysis of the deposited data

Results flagged for a closer look

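*S100b* was the 1 gene of the 8 whose difference between the fractions had opposite signs in the 2 pairs of libraries. L1CAM-positive minus L1CAM-negative was -0.31 in number 25 (8 days) and 0.78 in number 31 (5 days) on the log2 scale. Over all genes tested, 11.9% had opposite signs. The difference between the culture periods did not pass the interaction test of limma (0.65, standard error 0.89, unadjusted p = 0.552).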

How the results depend on the processing

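The direction held in all 20 alternatives for *Sox10*, *Fabp7*, *Foxd3*, *Erbb3*, *S100b*, *Mbp* and *Egr2*. Many of these could not have changed it. Low-value filters alone, transcripts tested separately and the other forms of eBayes leave the log2 fold change as it is (2.25 for *Sox10*). Where the groups did not overlap, as in each of these genes but *S100b*, neither a pseudocount nor 1 library left out can reverse it. With the number as a replicate block, which leaves 1 residual degree of freedom, the log2 fold changes were 2.42 (*Sox10*), 3.71 (*Fabp7*), 1.61 (*Erbb3*) and 1.68 (*Mbp*), 0 of the 8 passed, and 0 genes were higher and 0 lower overall in limma (at an unadjusted p under 0.05, 4 of the 8 were higher, and 3999 genes were higher and 4418 lower). Deviations from group means correlated at 0.13 for number 25 and -0.01 for number 31 over 14794 genes. With the numbers crossed the values were 0.01 and -0.13. The deviations of the 2 positive libraries mirror each other, so these values hold a single contrast. They cannot decide whether the numbers pair the libraries. With the culture period as a term, *Sox10* (2.19), *Fabp7* (3.41) and *Erbb3* (1.51) did not pass, 1 of the 8 was higher, and 1727 genes were higher and 1273 lower. With the robust form the same 3 did not pass (2.25, 3.53 and 1.55), 1 of the 8 was higher, and 797 genes were higher and 352 lower. *Sox10* also lost its call with a pseudocount of 5 (1.53) and without the trend (2.25). *Foxd3* passed with floor genes left out (1.63), with the filter at 1 FPKM (1.63), centred on the median (1.63) and on housekeeping genes (1.70). *Egr2* passed with the filter at 1 FPKM (-0.75), so that 1 of the 8 was lower. *Gfap* had no value under that filter.

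With 1 library left out, log2 fold changes ranged from 1.69 to 2.81 for *Sox10*, 2.96 to 4.09 for *Fabp7*, 1.19 to 1.90 for *Erbb3*, -0.87 to -0.57 for *Egr2* and, changing sign, -0.039 to 0.087 for *Gfap* (-0.0089 without number 25 and -0.039 without number 31 of the negative spheres, -0.029 without number 31 of the positive). Between 1 and 2 of the 8 were higher and 0 to 1 lower, and over all genes 1301 to 2805 were higher and 521 to 2942 lower. Where 1 L1CAM-positive library was left, it was assumed to vary like the others. With floor genes left out and the culture period as a term, an alternative chosen after seeing the data, 4 of the 8 were higher. The causes were not tested, apart from fewer genes or libraries in the fit. The unknown depth sets what can be read of *Gfap* and classic *Mbp* near the floor.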
